A study of Mus musculus with 4 samples.

Results

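Naive-like CD8 T cells were picked out of single-cell RNA profiles of mesenteric lymph nodes as cells with transcripts of the CD3 complex and of Cd8b1 but few effector or regulatory T cell transcripts. They numbered 242 of 10817 kept cells, 50 of 6313 in the hCD2+ library and 192 of 4504 in the hCD2- library. A kept cell carried exactly 1 hashtag, at least 500 genes, at most 10% mitochondrial UMIs (unique molecular identifiers, each standing for 1 captured transcript) and at least 3000 UMIs. A member further held at least 2 UMIs of Cd3e, Cd3d and Cd3g together, at least 1 of Cd8b1 and fewer than 2000 CPM (UMIs per 1000000 of the total) of Cd74. It had at most 1 of Ly6c2, Nkg7, Cd163l1, Samd3 and Ifngas1 detected, and at most 1 of Foxp3, Ctla4 and Izumo1r. The members were thus chosen by measured values of these 13 genes, and the levels of those genes are given as a description.

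The animals were 12 untreated 15-day-old mice, and all of them carried a Gm38411-iCre-hCD2 cassette together with R26-tdTomato. The cassette ties 2 products to Gm38411, iCre, which is a recombinase, and hCD2, the human CD2 protein carried on the surface, and a cell that has been recombined, or that descends from one, is labelled by tdTomato. Both groups were taken from the same gate, tdTomato+ CD11c+ MHC-II+ cells free of surface CD3 and B220, the first of them hCD2+ and the second hCD2-. Each group was sequenced as 1 library in which hashtags 1 to 12 marked the mice, so that sorted fraction and library cannot be told apart in any comparison below.

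CD8 T cells recognise peptides on MHC class I molecules through a T cell receptor paired with CD8, a dimer of the chains encoded by Cd8a and Cd8b1. Before they meet antigen they recirculate through lymph nodes, guided by the chemokine receptor Ccr7 and the egress receptor S1pr1, and stay quiescent under transcription factors such as Lef1, Tcf7, Foxo1 and Klf2. Runx3 is known to silence Cd4 and to promote the cytotoxic programme in this lineage, whereas Zbtb7b and Gata3 direct the CD4 lineage.

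The members held transcripts of CD3 genes and of Cd8b1, as the rule required, although the gate had been set against surface CD3. The median member held 16322 UMIs and 4135 genes in the hCD2+ library and 17039.5 UMIs and 4183 genes in the hCD2- library. Cd3e, a gene of the rule, was detected in 50 of 50 and 191 of 192 members. The genes behind the sort markers were low in these cells, which the rule had limited in Cd74. H2-Aa, an MHC-II chain, stood at 101 and 96.7 CPM in hCD2+ and hCD2- members. Droplets of 10 to 100 UMIs, which sample the free RNA of each library, held 3110.3 and 3942 CPM. Itgax, which encodes CD11c, had 1 and 17 UMIs in all members. Of the marker genes set for this cell type, Lef1 was detected in 100% of hCD2+ and 98.4% of hCD2- members, Themis, a regulator of T cell receptor signalling, in 98.0% and 98.4%, Cd8a in 90.0% and 84.4%, and Dapl1 in 38.0% and 42.7%. Dapl1 thus had no UMI in most members. Conventional CD4 T cells, defined below and of lower median depth, had Lef1 in 97.0% of hCD2+ and 99.6% of hCD2- cells. Themis was found in 83.6% and 97.0% of them, and Dapl1 in 32.8% and 45.5%. Memory-like CD8 cells, also defined below, had Lef1 in 99.3% and 97.1%, Themis in 100% and 98.1%, and Dapl1 in 43.8% and 33.2%. Lef1, Themis and Dapl1 were thus detected in the nearest T cell classes as well.

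Transcripts of the cassette were rare in the members. Gm38411 had 3 UMIs in 1 of 50 hCD2+ members and 0 in 192 hCD2- members, and hCD2 had 2 UMIs in 2 hCD2+ members and 0 in hCD2- members. Pooled, this was 3.14 CPM of Gm38411 in hCD2+ members, against 43.3 CPM in hCD2+ kept cells that were not T cells and 23.7 CPM in the droplets of that library. With 0 UMIs, the hCD2- members allow up to 0.895 CPM (3 counts, counting error only). tdTomato, the lineage label, was detected in 47 of 50 and 188 of 192 members. Pooled, it stood at 199 CPM in hCD2+ and 372 CPM in hCD2- members, against 158 and 246 CPM in the droplets of those libraries. The part of free RNA in its detection was not tested.

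A small set of members looked like CD4 T cells. Of the 28 members with a single Cd8b1 UMI, 23 also had a Cd4 UMI and 3 had a Cd8a UMI. Of the 214 members with 2 or more Cd8b1 UMIs, 9 had a Cd4 UMI and 204 a Cd8a UMI. Members with a single Cd8b1 UMI held 279 CPM of Cd4, 88.1 CPM of Cd40lg (CD40 ligand, the helper signal to antigen-presenting cells) and 33.3 CPM of Zbtb7b. The other members held 7.72 CPM of Cd4, 3.60 CPM of Cd40lg and 1.03 CPM of Zbtb7b. T cells that met every other condition but had no Cd8b1 UMI, 348 cells, were at 257 CPM of Cd4, 79.3 CPM of Cd40lg and 19.2 CPM of Zbtb7b, beside 0.709 CPM of Cd8a. The gene tests below were repeated with at least 2 Cd8b1 UMIs and without members that had a Cd4 UMI.

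**Figure D1:**
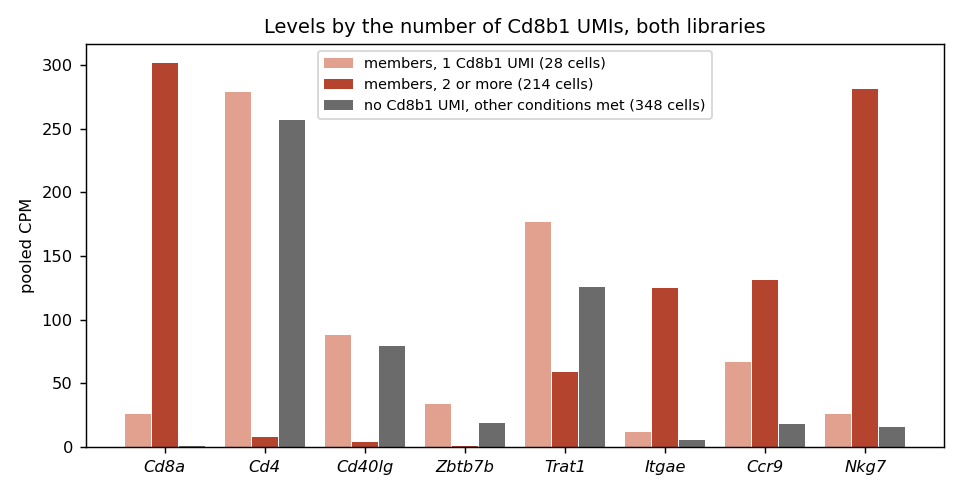
Pooled CPM of lineage genes (y axis) in members with 1 Cd8b1 UMI, members with 2 or more, and T cells with no Cd8b1 UMI that met the other conditions, both libraries together; no error bars, since cells are pooled. Members with 1 UMI stood at 26.2 CPM of Cd8a and 279 CPM of Cd4, members with 2 or more at 301 and 7.72 CPM.

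Of the members, 204 had 1 of the 5 effector genes, in most of them Nkg7, a granule protein of cytotoxic cells that was seen in 80.0% of hCD2+ and 78.1% of hCD2- members. In conventional CD4 T cells Nkg7 had a UMI in 4.48% and 0.858% of cells, at median depths of 13620 and 15024 UMIs. The 38 members with 0 effector genes held 197 CPM of Cd4, 74.5 CPM of Cd40lg and 112 CPM of Cd8a. Members with 1 effector gene held 9.62, 2.40 and 299 CPM. Members free of effector genes were thus closer to CD4 T cells in these genes. The 165 cells just outside, with exactly 2 effector genes, held 1472 CPM of Lef1 against 2128 CPM in members with 1 effector gene, and 161 against 33.7 CPM of Eomes, a T-box factor of memory cells. Cells with 3 or more effector genes had 1108 CPM of Lef1, 137 CPM of Eomes and 24.9 CPM of Itgae, which encodes the integrin chain CD103, where members with 1 had 126 CPM of Itgae. For Cd74 only 5 members lay between 1000 and 2000 CPM and 35 cells that met every other condition lay above 2000. The 28 cells with exactly 2 of the 3 regulatory genes held 804 CPM of Ikzf2.

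The neutrophil genes S100a8, S100a9 and Csf3r were at 0 UMIs in both libraries. The recombinase genes Rag1 and Rag2 and the pre-T receptor gene Ptcra were also at 0, while Dntt had 0 UMIs in hCD2+ and 1 UMI in hCD2- members. Of the B cell genes, Ms4a1 and Pax5 were at 0, Cd79a had 2 and 10 UMIs, Cd79b 9 and 51, and Ebf1 0 and 1. The B cell list summed to 11.5 CPM in hCD2+ and 18.5 CPM in hCD2- members, against 104.5 and 46.4 CPM in kept cells that were not T cells. The 12 dendritic cell markers summed to 1159 CPM in hCD2+ and 477 CPM in hCD2- members, against 16698 and 21843 CPM in kept cells that were not T cells. A total of 6 of the 50 hCD2+ and 5 of the 192 hCD2- members held 20 to 207 UMIs of dendritic, plasmacytoid or type 3 innate lymphoid markers, chiefly Fscn1, Cst3 and Flt3, while no other member had more than 11. In 1 hCD2+ member the leading genes were Il22, Il1r1 and Il23r, and in 1 hCD2- member Ly6d and Siglech. Barcodes carrying more than 1 hashtag had been left out, but 2 cells of the same mouse in a droplet carry a single hashtag, and their part was not tested. Of the called barcodes, 20 occurred in both libraries, and 1 of them belonged to a member.

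Naive-like CD8 cells made up a smaller share of the hCD2+ fraction in every mouse. They were 0.818% ± 0.746 of kept hCD2+ cells, ranging from 0.156% to 3.05%, and 4.25% ± 1.55 of kept hCD2- cells, ranging from 1.70% to 6.69% (SD, n = 12 mice each). The difference of -3.43 percentage points was found in 12 of 12 mice (two-sided permutation p = 2e-05, the smallest that 100000 permutations give here, adjusted over 2 shares p = 4e-05). Hashtag 4 stood highest in the hCD2+ fraction, with 15 of the 50 members. Without that mouse the shares were 0.614% and 4.02% (permutation p = 4e-05). Conventional CD4 T cells were also fewer, at 67 of 6313 kept hCD2+ and 233 of 4504 kept hCD2- cells. Memory-like CD8 cells, defined below, were 137 and 376 of the same cells, and all T cells 402 and 1233. The lower share was thus not particular to naive-like CD8 cells. These counts of the other classes were pooled over mice and not tested. The shares hold for this gate only.

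Among T cells no difference in share passed the test. Naive-like CD8 cells were 13.2% ± 8.30 of hCD2+ T cells, with a lowest value of 3.57% and a highest of 33.3%, and 15.5% ± 4.42 of hCD2- T cells, between 6.33% and 21.8% (n = 12 each, lower in 10 of 12 mice). The mean difference of -2.35 points did not pass the test (two-sided permutation p = 0.403). Without the hCD2+ values of hashtags 2 and 7, which rest on 10 and 15 T cells, the shares were 10.5% and 15.5% (permutation p = 0.0243). With each cell thinned to 3000 UMIs they were both 28.6% (permutation p = 0.993). A thinned cell has fewer detected effector genes, so that more cells meet the rule.

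**Figure D2:**
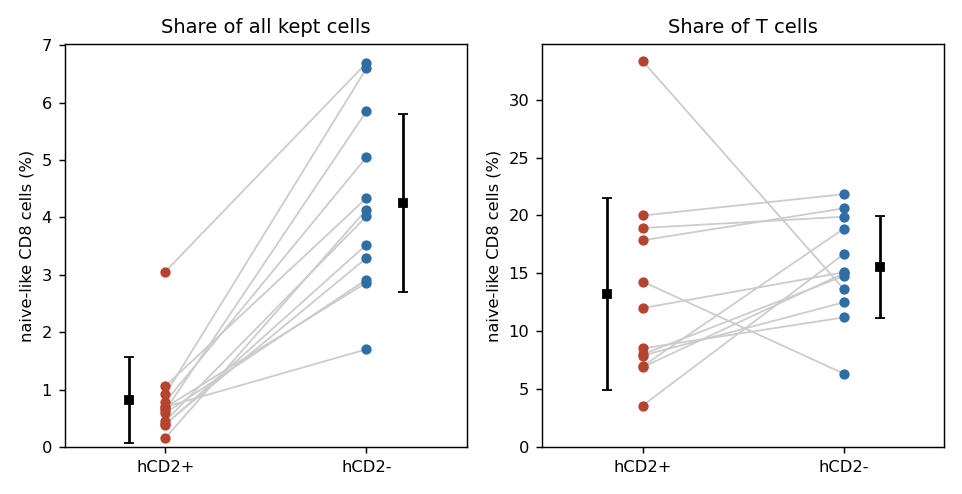
Naive-like CD8 cells as a percentage of all kept cells (left panel) and of T cells (right panel) per mouse, hCD2+ left of hCD2-; grey lines join the fractions of 1 mouse and black squares with bars are mean ± SD over 12 mice. All 12 lines rise to the right in the left panel, while in the right panel 10 of 12 do.

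Dividing cells were few. At least 5 UMIs of Mki67, Top2a, Ccnb1, Ccnb2, Cdk1 and Birc5 together were found in 4 of 50 hCD2+ members (8%, Wilson 95% interval 3.15% to 18.8%) and 8 of 192 hCD2- members (4.17%, 2.13% to 8.01%). In memory-like CD8 cells, the T cells with Cd8b1 and at least 2 of the effector genes, the counts were 20 of 137 (14.6%) and 50 of 376 (13.3%). After thinning each cell to 3000 UMIs, at least 1 such UMI was left in 20% of hCD2+ and 12.0% of hCD2- members, and in 15.3% and 19.1% of memory-like cells. Median depths before thinning were below those of memory-like cells, and no order of the classes is read from these shares. The intervals cover counting error only, and no test over cells was made.

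Next, naive-like CD8 cells were set against conventional CD4 T cells of the same mice in the hCD2- library. The CD4 cells met the same conditions but had at least 1 Cd4 UMI and none of Cd8b1 and Cd8a, and 233 cells qualified. Of 4329 genes tested, leaving out the genes that define the cells, 565 were called at an edgeR adjusted p under 0.05, which is 13.1%, with 291 higher (6.72%) and 274 lower (6.33%) in naive-like CD8 cells (n = 12 mice each). The ranges over mice did not overlap for 26 genes (0.601%). The dendritic markers summed to 196 to 996 CPM per mouse in naive-like CD8 cells and 248 to 2058 CPM in CD4 cells. Without cells of either kind that held 15 or more UMIs of other markers, 551 genes were called, 450 of them among the 565.

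The transcript furthest apart lies in the Cd8 locus itself. Gm44174 (ENSMUSG00000108289) is an annotated lincRNA at chr6:71353035-71373284 on the plus strand (GRCm38), between Cd8b1 (chr6:71322788-71337494) and Cd8a (chr6:71373427-71379173), which share that strand. It ranged from 109 through a median of 207 to 376 CPM over the 12 mice in naive-like CD8 cells, against 0, 0 and 1.46 CPM in CD4 cells. In all, 780 UMIs stood against 1, a ratio of pooled CPM of 856 (exact 95% interval 153 to 33864, counting error only). Every mouse of the CD8 arm lay above every mouse of the CD4 arm. In memory-like CD8 cells Gm44174 averaged 263 ± 47.8 CPM, so that the transcript was seen in both CD8 classes. The gene was singled out after its values were seen, as predicted gene models were outside the naming rule. CD4 cells were chosen for having no Cd8b1 or Cd8a UMI, and reads of a transcript running between such neighbours cannot be assigned with certainty.

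The last exon of Gm44174 ends 143 bases before the start of Cd8a, within the window before it. The 250 bases before the Cd8a start are shown for this overlap (RefSeq, GRCm38.p6, chr6:71373177-71373426, plus strand), with the 60 bases of that exon in capitals.
Cd8a: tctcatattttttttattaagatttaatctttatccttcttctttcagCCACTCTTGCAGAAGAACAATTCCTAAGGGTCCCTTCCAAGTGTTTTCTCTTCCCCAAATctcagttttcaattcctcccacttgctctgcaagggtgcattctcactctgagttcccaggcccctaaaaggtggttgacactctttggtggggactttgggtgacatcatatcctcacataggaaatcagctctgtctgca

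Klrd1 and Ctsw were higher in naive-like CD8 cells. Klrd1, which encodes the CD94 chain of natural killer receptors (chr6:129591782-129598775), ranged from 72.4 through 116 to 137 CPM in naive-like CD8 cells and from 0 through 7.86 to 25.2 CPM in CD4 cells (log2 fold change 3.81 ± 0.27, edgeR adjusted p = 7.95e-13). Ctsw, a protease gene of cytotoxic lymphocytes, was at 82.6, 136 and 188 CPM against 9.87, 35.3 and 70.5 CPM (log2 1.84 ± 0.19, edgeR adjusted p = 1.39e-08). For both genes the lowest CD8 mouse stood above the highest CD4 mouse. Plac8 (log2 3.30 ± 0.25) and Fam241a (2.63 ± 0.17) behaved alike, and all 4 genes were higher in 12 of 12 mice. Il2rb, the shared IL-2 and IL-15 receptor chain, and Prf1, the pore-forming perforin, did not pass the filter on low counts and are given after their values were seen. Il2rb averaged 68.6 ± 21.1 CPM in naive-like CD8 and 15.0 ± 11.3 CPM in CD4 cells, and Prf1 31.2 ± 19.97 and 3.39 ± 3.001 CPM. Gzma, Gzmb, Gzmk and Ifng had 4, 2, 0 and 6 UMIs in all 192 hCD2- members.

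Ikzf2 and Ccr9, both listed for recent thymic emigrants, were higher as well. Ikzf2, which encodes the Ikaros family factor Helios (chr1:69531214-69687245), ranged from 182 through 531 to 876 CPM in naive-like CD8 cells and from 9.81 through 37.7 to 514 CPM in CD4 cells (log2 2.40 ± 0.38, edgeR adjusted p = 3.97e-05). It was higher in 12 of 12 mice, yet the ranges overlapped, with 3 CD4 mice above the lowest CD8 mouse. Both arms had been limited in Foxp3, Ctla4 and Izumo1r, and the part of this limit in the difference was not tested. Ccr9, the receptor for the chemokine CCL25 of thymus and small intestine (chr9:123678439-123784330), was at 58.4, 128 and 218 CPM against 0, 13.7 and 50.1 CPM (log2 2.91 ± 0.28, edgeR adjusted p = 2.3e-09), without overlap. Of the 16 genes listed for thymocytes and recent thymic emigrants, 5 were tested; Ccr9 and Ikzf2 were higher, Tox (log2 -0.85 ± 0.13) and Pecam1 (-0.66 ± 0.14) lower, and Sox4 was not called. The list's median log2 change was -0.17, beside 0.02 over all tested genes.

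Itgae (chr11:73090583-73147446), whose product CD103 binds E-cadherin of epithelia, was too low in CD4 cells for the filter and is likewise described after its values were seen. It had 389 UMIs in naive-like CD8 cells, ranging from 36.4 through 114 to 189 CPM, and 7 UMIs in CD4 cells, at most 6.53 CPM. Every CD8 mouse was above every CD4 mouse, and with no filter the log2 change was 5.604 ± 0.35 (edgeR adjusted p = 4.73e-17). Itgae had a UMI in 54.2% of naive-like CD8 cells and 3.004% of CD4 cells, at median depths of 17039.5 and 15024 UMIs. Ikzf2 was found in 77.6% and 18.9% of the same cells.

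Of 12 listed CD8 lineage genes 4 were tested, with Runx3 higher and Runx1 lower. Runx3 (chr4:135120652-135177990) ranged from 230.3 through 329.5 to 528 CPM in naive-like CD8 cells and from 70.5 through 106 to 177 CPM in CD4 cells (log2 1.70 ± 0.15, edgeR adjusted p = 1.41e-10). Its paralogue Runx1 was at 118, 270 and 474 CPM against 495, 718 and 1294 CPM (log2 -1.46 ± 0.14, edgeR adjusted p = 3.03e-09). Neither pair of ranges overlapped. Of 12 CD4 lineage genes 8 were tested, and 6 were lower: Cd40lg (log2 -2.89 ± 0.30), Gata3 (-0.98 ± 0.19), Cd5 (-0.98 ± 0.11), Tox, Trat1 and Icos, with a list median of -0.79. The value of Cd40lg was -4.41 with at least 2 Cd8b1 UMIs required and -5.74 without members that had a Cd4 UMI. Zbtb7b, below the filter, averaged 3.30 ± 2.90 CPM in naive-like CD8 and 19.7 ± 12.4 CPM in CD4 cells.

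RefSeq lists more than 1 start for Runx3, and 3' reads do not tell them apart. The 250 bases before the upstream start are shown because Runx3 was the lineage factor called higher (GRCm38.p6, chr4:135120395-135120644, plus strand). Capitals mark the core motif of RUNX factors, TGTGGT or its reverse complement ACCACA, and the search of both strands found 2 matches, 134 and 126 bases before the start, that do not overlap.
Runx3: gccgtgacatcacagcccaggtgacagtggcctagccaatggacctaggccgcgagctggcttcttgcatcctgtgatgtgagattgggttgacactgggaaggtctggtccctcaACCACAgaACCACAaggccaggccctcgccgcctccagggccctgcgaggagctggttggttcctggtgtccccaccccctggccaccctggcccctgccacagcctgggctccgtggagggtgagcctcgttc
Of 32851 promoter windows of 300 bases, 16.8% held this motif at least once, and a match is a description of letters, not a bound site. The Cd8a window held none. The TCF or LEF core CTTTGA was in neither window, and in 16.0% of all.

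**Figure D3:**
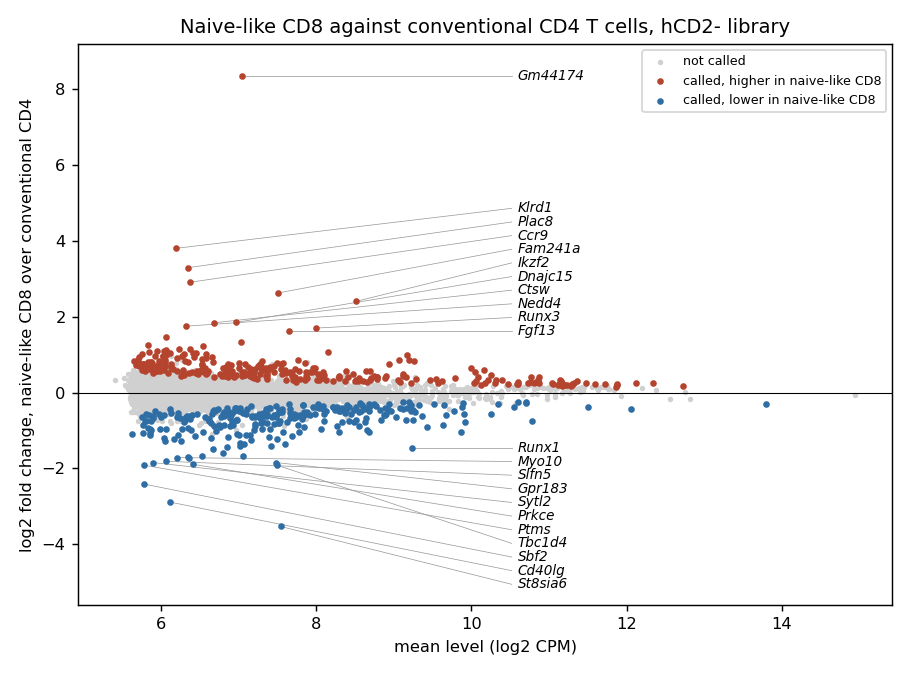
Log2 fold change of naive-like CD8 over conventional CD4 T cells (y axis) against mean log2 CPM (x axis) for the 4329 genes tested, 12 mice per arm; red and blue points were called higher and lower. Gm44174 stands alone at the top, followed by Klrd1, Plac8 and Ccr9, with St8sia6 and Cd40lg lowest.

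Quiescence genes were expressed in both lineages, with several lower in the CD8 cells. All 23 listed naive and quiescence genes were tested, and 10 were lower, none higher and 13 not called (list median -0.26, beside 0.02 over all genes). Tcf7 was at 589, 677 and 848 CPM in naive-like CD8 cells and 841, 1038 and 1217 CPM in CD4 cells (log2 -0.57 ± 0.08, edgeR adjusted p = 1.57e-06). Igfbp4 (log2 -1.05 ± 0.15), Ets1 (-0.38 ± 0.08) and Satb1 (-0.38 ± 0.09) were lower too. Il7r, the receptor chain for the survival cytokine IL-7, averaged lower as well (log2 -0.62 ± 0.17, edgeR adjusted p = 0.0151). The marker Lef1 was at 1709, 2145 and 2803 CPM against 1392, 2246 and 2651 CPM, with overlapping ranges, and Dapl1 at medians of 128 and 124 CPM. Neither was called, whereas Themis (medians 1137 and 743 CPM) was higher in 12 of 12 mice.

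More receptor and signalling genes were called lower than higher, where 6.33% of all tested genes were lower and 6.72% higher. Of 22 tested genes of the T cell receptor complex and its signalling, 8 were lower, among them Cd5 and the costimulator Cd28 (log2 -0.72 ± 0.13, edgeR adjusted p = 0.000167). Higher were Themis and the phosphatase gene Ptpn22 (log2 0.66 ± 0.09, edgeR adjusted p = 1.38e-06), and the list median was -0.05. Among 14 cytokine receptor genes 4 were lower, including Il6ra (log2 -1.05 ± 0.15) and Tgfbr2 (-0.42 ± 0.09), and Il21r was higher (0.53 ± 0.16, edgeR adjusted p = 0.0223), a call lost with at least 10 cells per mouse (0.41, adjusted p = 0.0647). Among 14 homing genes Gpr183, the oxysterol receptor that draws cells to the follicle border, was lower (63.1 ± 25.99 CPM in naive-like CD8, 247 ± 79.1 CPM in CD4 cells; log2 -1.85 ± 0.17), as were Cxcr4 and S1pr1, while Ccr9 and Selplg (0.79 ± 0.15) were higher. Ccr7 (log2 -0.15 ± 0.17) was not called.

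In the remaining lists few genes were called, where 13.1% of all tested genes were called. The lists were not tested against that share. Nr4a1, an immediate target of receptor signalling, was the only called gene of 6 tested activation genes and was lower (log2 -1.12 ± 0.24). Btla was lower among 2 tested checkpoint receptors, Zfp36 (log2 -0.91 ± 0.27, edgeR adjusted p = 0.0233) among 13 stress and immediate early genes, and H2-Q7 higher (log2 0.63 ± 0.16) among 15 class I presentation genes. The call of Zfp36 was lost with at least 2 Cd8b1 UMIs (log2 -0.87, edgeR adjusted p = 0.0549) and without members with a Cd4 UMI (-0.86, 0.0528). It was also lost, with a smaller change, at Cd74 under 500 CPM (log2 -0.61, edgeR adjusted p = 0.0826) and without cells carrying other markers (-0.40, 0.257). Mcm6 (log2 1.03 ± 0.17) and Tubb5 were higher among 4 tested proliferation genes, Tubb5 without a call when no filter was used (edgeR adjusted p = 0.0542). None of the 6 interferon response genes tested, nor of 16 oxidative phosphorylation genes, such as Cox4i1 (log2 0.13 ± 0.09), was called. Atp5b (log2 0.28 ± 0.10, edgeR adjusted p = 0.0679) was called with at least 2 Cd8b1 UMIs (0.0283) and without members with a Cd4 UMI (0.0438). tdTomato did not differ by the test (395 ± 94.1 CPM in naive-like CD8, 424 ± 85.5 CPM in CD4 cells; log2 -0.14 ± 0.11, edgeR adjusted p = 0.489).

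Outside the lists, Dnajc15, Nedd4 and Fgf13 were among the 10 named genes of largest rise (log2 1.85 ± 0.17, 1.75 ± 0.22 and 1.62 ± 0.28; 12, 12 and 11 of 12 mice). Nedd4 encodes a ubiquitin ligase. St8sia6, a sialyltransferase gene, was lower, at 0, 27.5 and 49.7 CPM in naive-like CD8 cells against 161, 305 and 469.8 CPM in CD4 cells (log2 -3.53 ± 0.26, edgeR adjusted p = 2.05e-12). Its log2 change was -4.56 with at least 2 Cd8b1 UMIs and -4.98 without members that had a Cd4 UMI. Sbf2 (-2.42 ± 0.35), Tbc1d4 (-1.92 ± 0.47), Ptms (-1.92 ± 0.30), Prkce (-1.89 ± 0.30), Sytl2 (-1.85 ± 0.26), Slfn5 (-1.81 ± 0.30) and Myo10 (-1.72 ± 0.27) were lower in 10 to 12 of 12 mice. Tbc1d4 varied widely, from 0 to 477 CPM in naive-like CD8 cells and from 91.4 to 741 CPM in CD4 cells, and its log2 change was -2.78 with DESeq2. For Prkce the value was -2.56 with at least 2 Cd8b1 UMIs and -2.71 without members that had a Cd4 UMI.

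Beside memory-like CD8 cells, which the effector genes part from the members, levels are a description without a test. Lef1 averaged 2214 ± 348 CPM in naive-like and 1169.5 ± 235 CPM in memory-like cells of the hCD2- library, with no overlap between the 12 mice of each. Igfbp4 (177 ± 46.7 and 54.3 ± 22.98 CPM), Sox4 (85.2 ± 37.7 and 18.2 ± 7.89 CPM), an early lymphoid factor, and Ccr9 (126 ± 51.8 and 19.5 ± 12.9 CPM) likewise stood apart. Of the 23 quiescence genes 18 had the higher mean in naive-like cells (list median log2 ratio 0.44, beside 0.01 over all genes). The same held for 18 of 22 receptor signalling genes (list median 0.16). In at least 9 of 12 mice, 16 quiescence genes were higher and 1 lower. Of the receptor signalling genes, 9 were higher and 2 lower in as many mice.

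In the other direction Il2rb (68.6 ± 21.1 and 182 ± 31.4 CPM), Klrd1 (113 ± 20.2 and 277 ± 57.2 CPM) and Tbx21 (4.45 ± 7.28 and 47.9 ± 13.2 CPM), the T-bet gene, were lower in naive-like cells in 12 of 12 mice. Klrc1 and Klrc2, partners of CD94, had no UMI in naive-like cells, where a count of 0 allows up to 0.895 CPM, and averaged 110.1 ± 68.9 and 72.7 ± 38.3 CPM in memory-like cells. The 14 proliferation genes with a level all had the lower mean in naive-like cells (list median log2 ratio -1.30, beside 0.01 over all genes). All 16 oxidative phosphorylation genes had the lower mean as well (list median -0.23), as did 13 of 14 stress and immediate early genes (-0.19). Lower in at least 9 of 12 mice were 14 proliferation, 10 oxidative phosphorylation and 6 stress and immediate early genes. Higher in as many mice were 0, 0 and 1 genes of these lists. For Klrd1 and Il2rb the order of means was therefore memory-like, naive-like, then CD4, whereas for Ikzf2 (539 ± 170.4, 242 ± 52.1 and 104 ± 146 CPM) and Itgae (112 ± 49.99, 37.3 ± 13.3 and 2.12 ± 2.27 CPM) naive-like cells came first. For Ikzf2 the memory-like and CD4 levels overlapped over mice. Naive-like and memory-like levels overlapped for both Ikzf2 and Itgae. In mouse 12 Ikzf2 was at 182 CPM in naive-like and 315 CPM in memory-like cells. In mouse 10 Itgae was at 39.3 and 41.8 CPM.

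**Figure D4:**
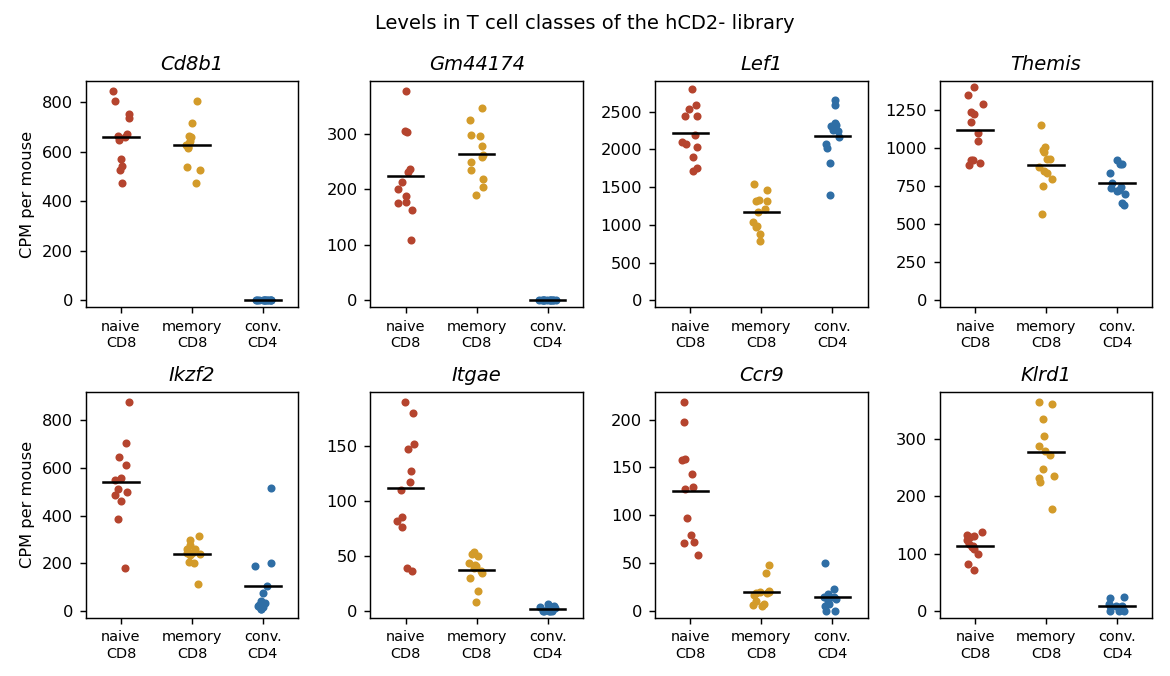
CPM per mouse (y axis, 1 point per mouse, 12 mice) of 8 genes in naive-like CD8, memory-like CD8 and conventional CD4 T cells of the hCD2- library; black lines are means. Ikzf2, Itgae and Ccr9 have their highest mean in naive-like cells, Klrd1 in memory-like cells, and Lef1 overlaps between naive-like CD8 and CD4 cells.

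Among the members themselves some genes sat in few cells. Xcl1, a chemokine that attracts cross-presenting dendritic cells, had 235 UMIs in 17 of 192 hCD2- members, and 133 of them lay in 1 member of mouse 8. Ccl5 had 1008 UMIs, of which 710 lay in 1 member of mouse 7, and Mki67 had 224 UMIs in 17 members, of which 84 lay in 1 member of mouse 4. By contrast Ikzf2 was spread over 149 members, Klrd1 over 119, Itgae over 104 and Ccr9 over 103. Means of Xcl1, Ccl5 and Mki67 over mice thus rest on a few cells.

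The last comparison asked how members differed between the sorted fractions. Only 3 mice had at least 5 members in the hCD2+ fraction, against 12 in the hCD2- fraction, so that the tested hCD2+ cells came from hashtags 4, 5 and 7, with 15, 7 and 5 members. Of 5285 genes tested 19 were called (edgeR adjusted p under 0.05; 0.360%), 4 higher (0.0757%) and 15 lower (0.284%) in hCD2+ members. The mice of both arms did not overlap for 65 genes (1.23%), and 397 genes had an unadjusted p under 0.05. With DESeq2 8 were higher and 17 lower, and all 19 were among them. With the mouse as a block, which the shared animals allow for 3 pairs, 1 call remained, Gm10076. Without mouse 4 the count was 36 and without mouse 7 it was 29.

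Of the 15 lower genes 9 encode ribosomal proteins, and no other ribosomal protein gene was called. Rps29 was at 1049.7, 1045 and 1193 CPM in the hCD2+ members of mice 4, 5 and 7, and averaged 2259 CPM in hCD2- members (log2 -1.08 ± 0.10). Rpl35 (log2 -1.22 ± 0.15), Rps27 (-0.98 ± 0.12), Rps28 (-0.98 ± 0.12), Rpl38 (-0.95 ± 0.11) and Rpl39 (-0.85 ± 0.12) were lower too, while the median over 79 tested ribosomal protein genes was -0.06. Gm10076, a lincRNA gene at chr14:105681828-105682211, had the largest fall, at 114, 186 and 126 CPM in hCD2+ members with a mean of 568 CPM in hCD2- members (log2 -2.04 ± 0.23). The mitochondrial mt-Nd4l (-1.46 ± 0.21), Cmss1 (-0.89 ± 0.11) and Gphn (-0.75 ± 0.13) were lower as well. Ribosomal, mitochondrial and predicted genes lay outside the naming rule and are given because the count was small. Gm10076 and Rpl10-ps3, which was higher, are gene models whose reads may be shared with near-identical copies, and Cmss1 overlaps another gene.

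Many of these genes also differed between the libraries in other T cells. In memory-like CD8 cells (9 and 12 mice) 15 of the 19 were called in the same direction, among 1.20% of genes called there, and in conventional CD4 cells (7 and 12 mice) 15 of 18 tested, among 2.14%. Gm10076 changed by -2.04 ± 0.23, -2.00 ± 0.09 and -1.85 ± 0.15 on the log2 scale in naive-like CD8, memory-like CD8 and CD4 cells. A test of the difference between naive-like and memory-like cells called 0 of 6913 genes in edgeR, with 603 at an unadjusted p under 0.05. Since each fraction was 1 library, a difference between the cells and a difference between the library preparations cannot be told apart.

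**Figure D5:**
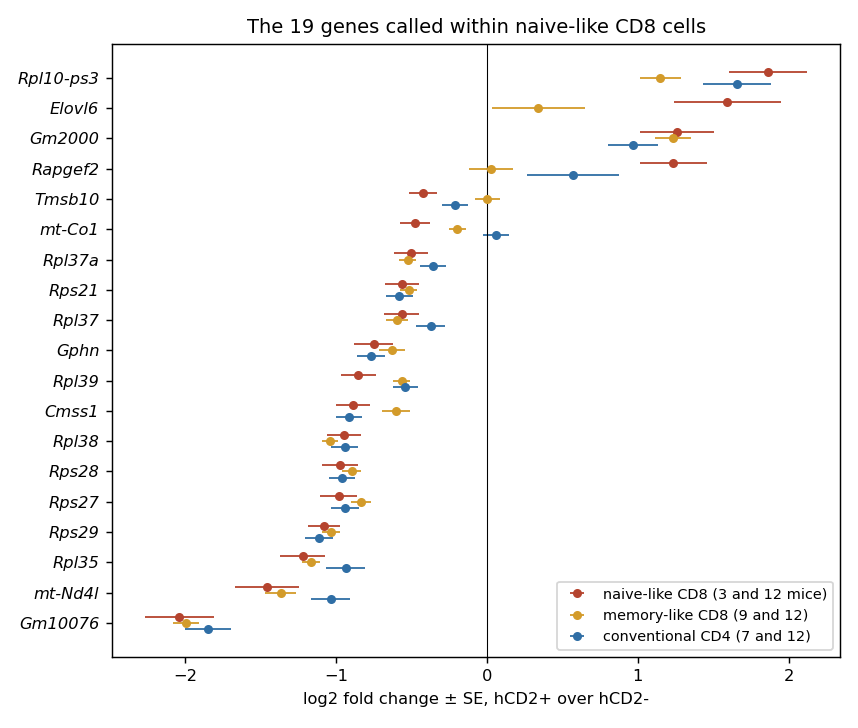
Log2 fold change ± SE of hCD2+ over hCD2- (x axis) for the 19 genes called within naive-like CD8 cells, in these cells and in memory-like CD8 and conventional CD4 T cells; Elovl6 was not tested in CD4 cells. Most genes moved to the same side in all classes, from Gm10076 at the bottom to Rpl10-ps3 at the top, while Elovl6, Rapgef2, Tmsb10 and mt-Co1 passed the threshold in neither of the other classes.

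Of the 19 genes, Rapgef2, Elovl6, Tmsb10 and mt-Co1 were called in neither other class. Rapgef2, an exchange factor for Rap GTPases, was at 199, 399 and 477 CPM in hCD2+ members of mice 4, 5 and 7 and averaged 142 ± 30.4 CPM in hCD2- members (log2 1.24 ± 0.22, edgeR adjusted p = 0.00396). Its change was 0.03 ± 0.15 in memory-like cells and 0.57 ± 0.30 in conventional CD4 cells. The difference between naive-like and memory-like cells did not pass the adjustment (1.20 ± 0.27, edgeR adjusted p = 0.227). Elovl6, a fatty acid elongase gene, was at 203, 53.2 and 75.4 CPM, with the high value in mouse 4 alone, and averaged 41.6 ± 18.5 CPM in hCD2- members (log2 1.59 ± 0.35, edgeR adjusted p = 0.0372). Tmsb10, which encodes an actin-binding thymosin, was lower in 3 of 3 mice (log2 -0.42 ± 0.09, edgeR adjusted p = 0.0372). It changed by 0.003 ± 0.08 in memory-like cells and by -0.21 ± 0.09 in conventional CD4 cells.

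None of the members' functional lists had a called gene between the fractions. Over all genes 19 of 5285 (0.360%) were called, so that a list without a call is close to that share. The 23 quiescence genes had a median log2 change of -0.17 and the 25 receptor signalling genes of -0.18, beside 0.00 over all genes. The 7 tested type I interferon response genes had a median of -0.86 with no call. Ccr7 averaged 368 ± 93.9 CPM in hCD2+ members and 588 ± 144 CPM in hCD2- members (log2 -0.67 ± 0.22, edgeR adjusted p = 0.356), and Ikzf2 410.5 ± 258 and 539 ± 170.4 CPM (log2 -0.44 ± 0.33, edgeR adjusted p = 0.799). tdTomato was at 248, 153 and 264 CPM in the hCD2+ members of the 3 mice, below the 307 to 642 CPM of the hCD2- members, but did not pass the adjustment (log2 -0.84 ± 0.22, edgeR adjusted p = 0.155). The droplets were also lower in the hCD2+ library, at 158 CPM of tdTomato against 246 CPM. With 3 mice in an arm, a p that misses the threshold does not show that these genes were alike.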

How the data were processed

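The authors deposited raw UMI counts of 2 libraries, by barcode for genes and hashtags, made with Cell Ranger 8.0.1 on mm10 per the submitters' processing notes, with iCre, Cre, hCD2 and tdTomato as added features. The deposited hashtag table gives each called cell a hashtag and its posterior probability, a fraction from 0 to 1. Libraries held 191493368 (hCD2+) and 165869588 (hCD2-) UMIs in 8801 and 5603 called cells.

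Counts of members were summed per mouse (at least 5 cells) and tested in edgeR 4.0.16 (R 4.3.3) by the quasi-likelihood method after filterByExpr and TMM scaling, with Benjamini-Hochberg adjustment over all genes tested. Fold changes are log2 ± SE, levels CPM, mean ± SD over mice. Shares were compared by permutation. Equal hashtags mark the same animals per the series' design; same-animal deviations correlated at -0.0872 to 0.251 (3 pairs of fractions) and -0.00943 to 0.238 (12 pairs of CD8 and CD4). Both fits were tested on simulated data with a dispersion set beforehand, not estimated from these counts. The fit between fractions recovered 92.7% of 4-fold and 24.0% of 2-fold changes, and the fit against CD4 cells 73% and 67%. False calls were 5 of 119 and 6 of 146.

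Named genes were those of largest change and 2 to 4 per function list. Genes of largest change were picked from the same mice, so their counts of mice in agreement are not independent support. Members and lists were chosen with earlier results of these data known. Alternatives are DESeq2 1.42.0, RLE factors, no filter, thinning, stricter member rules and omitted mice.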

Additional observations from a re-analysis of the deposited data

How the results depend on the processing

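The share of kept cells stayed lower in hCD2+ in all 7 alternatives. Exact sign flips within paired mice (the replicate block) gave p = 0.000488 for it and p = 0.382 for the share of T cells. The share of T cells moved to 0.0273 points with cells thinned to 3000 UMIs and to -5.04 points with at least 20 T cells per mouse.

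Within members 19 genes were called between fractions. The count was 51 with no filter, 7 with at least 10 cells per mouse, 1 with the replicate block, 12 with thinned cells, and 14 to 36 with 1 mouse left out. Of the 3 hCD2+ mice, 2 were left with at least 2 Cd8b1 UMIs or without members with a Cd4 UMI, and 1 with at least 10 cells per mouse, which was taken to vary like the others.

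Against CD4 cells 565 genes were called, 855 with no filter and 118 of 832 tested with thinned cells. Other settings gave 495 to 713 and the replicate block 556; it moved no other count by over 1.5 times. The 20 genes of largest change kept direction and call wherever tested. With thinned cells, however, only 2 of them were tested, Ikzf2 and Runx3. Leaving out mouse 4 from the shares, cells with other markers, or cells of low hashtag probability, and the fits in the other T cell classes, were chosen after seeing the data.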
